A study of Mus musculus with 2 samples.

Results

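Mural-marker barcodes of the gonadal fat were chosen by a fixed rule on marker genes. Members were selected on the UMI counts of those genes. A barcode was a member when at least 4 of 8 mural genes (Rgs5, Notch3, Kcnj8, Abcc9, Higd1b, Ndufa4l2, Mcam and Des) had a UMI, a unique molecular identifier that stands for 1 captured RNA molecule, and when Ptprc, the leukocyte surface phosphatase CD45, had none. Of 18753 barcodes that passed the quality filter in the 2 libraries, 117 were members. The low-fat diet (LFD) library held 25 of them among 10216 barcodes and the high-fat diet (HFD) library 92 among 8537. Both libraries came from male Cyp1a1 fate reporter mice (Cyp1a1Cre x R26LSL-eYFP), fed LFD (10% fat) or HFD (60% fat) for 12 weeks and injected with FICZ, a ligand of the aryl hydrocarbon receptor (AHR), at 10 mg/kg 5 days before the perigonadal white adipose tissue (gWAT) was taken. The stromovascular fraction (SVF), the cells left when mature adipocytes have been removed, was sorted for live eYFP+ cells. Cre is driven from Cyp1a1, an AHR target gene, and the recombination is permanent. The eYFP label therefore marks a cell in which Cyp1a1 was active then or earlier, or a descendant of such a cell. Cells without eYFP were not sorted for, but whether every cell behind a barcode held it was not tested. Mice of each diet were pooled into 1 library, their ages were not given in the labels, and no label tied a cell to a mouse. There was therefore no replicate, no test was made between diets, and every interval given here is a 95% interval for counting error only.

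Mural cells are the cells that sit on the outside of blood vessels, pericytes on capillaries and smooth muscle cells on arterioles and veins. Pericytes share a basement membrane with the endothelium, are recruited by endothelial PDGF-B through the receptor Pdgfrb, and depend on Notch3 signalling. Smooth muscle cells carry the actin and myosin apparatus that sets vessel calibre, under the control of nitric oxide, endothelin and angiotensin II. In fat, cells of the vessel wall have also been discussed as a source of adipocyte precursors.

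The data went against the label for most members. At least 4 of 8 endothelial markers (Pecam1, Cdh5, Kdr, Tie1, Egfl7, Emcn, Esam and Ptprb) had a UMI in 15 of 25 LFD members (60.0%, 38.7 to 78.9%) and in 83 of 92 HFD members (90.2%, 82.2 to 95.4%). All 8 were found in 5 LFD and 34 HFD members, and none in 6 LFD members and 1 HFD member. Those with an Rgs5 UMI, 17 in LFD and 83 in HFD, and those without, 8 and 9, are given apart where it matters. The members are therefore named by their rule and not as a cell type, and the part that endothelial RNA plays in their values was not tested.

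The share of members was 0.245% (0.158 to 0.361%) among LFD barcodes and 1.08% (0.870 to 1.32%) among HFD barcodes, which gave a ratio of 4.40 (2.80 to 7.15). Per endothelial cell of the same library the ratio was 4.35 (2.77 to 7.06). Members with 4 or more endothelial markers had a ratio of 6.62 (3.79 to 12.4), whereas the 10 LFD and 9 HFD members with 0 to 3 of them had a ratio of 1.08 (0.387 to 2.95). When 3 rule genes were enough, the ratio was 1.01 (0.850 to 1.20). Between the libraries, the members also differed in depth, with a median of 11337 UMIs (1192 to 23591) and 3593 genes in LFD and 5825 UMIs (1467 to 28151) and 2561 genes in HFD. Endothelial cells had medians of 5173 and 3293 UMIs, below those of members in both libraries. The rule asks for UMIs of at least 4 genes in raw counts, which deeper barcodes meet more easily. The difference in depth is therefore no result about RNA content.

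The deposited libraries had 11281 LFD and 9631 HFD barcodes and 114311020 and 119498750 UMIs. Between them 27 barcode sequences were shared, of which none was a member's. Scrublet, which scores barcodes by their likeness to simulated doublets, placed 7 of 25 LFD members (28.0%) and 9 of 92 HFD members (9.78%) among the barcodes it would remove, against 9.03% and 7.71% of all barcodes.

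The rule genes chose the members, so their levels are a description. Rgs5, a GTPase activator for G protein signalling that is abundant in pericytes, had 189 counts in LFD and 907 in HFD members, or 650 (560 to 749) and 1168 (1093 to 1247) CPM (counts per 1000000 UMIs). In endothelial cells it stood at 27.6 and 96.7 CPM, and it had 0 counts in fibroblastic cells of either library. Notch3 had 144 and 223 CPM, against 0.406 and 2.61 in endothelial cells. Kcnj8 and Abcc9, the pore and the sulphonylurea receptor of the vascular ATP-sensitive potassium channel, had 217 and 303 CPM and 223 and 312 CPM. A UMI of Abcc9 was found in 18 of 25 and 79 of 92 members. Mcam was the exception among the rule genes: its 189 and 228 CPM in members lay below the 211 and 241 CPM of endothelial cells. Des, the intermediate filament protein desmin, stood at 254 and 140 CPM, with 93.9 and 61.0 CPM in fibroblastic cells.

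At the edge of the rule, 12 LFD and 21 HFD members had exactly 4 rule genes and 3 and 11 had all 8. Just outside it, 275 LFD and 161 HFD barcodes had exactly 3 rule genes and no Ptprc UMI. Of those, 92.7% and 91.3% held a UMI of Wt1, a transcription factor of the mesothelium, and only 13 and 17 held one of Rgs5. The barcodes just outside thus carried mainly other markers than those inside. Wt1 was found in 8 LFD and 12 HFD members. Requiring no Ptprc UMI kept out 3 LFD and 10 HFD barcodes with 4 or more rule genes.

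Members without Rgs5 were of more than one kind. All 6 LFD members with no endothelial marker at all lacked Rgs5. The 8 LFD members without it each had a UMI of Kcnj8 and Des, 6 had one of Wt1, and their summed fibroblast markers stood at 30348 CPM (29411 to 31308), near the 35207 CPM of fibroblastic cells. In HFD, 3 of the 9 such members held 0 or 1 endothelial marker, each had a Wt1 UMI, and together they had 1866 of the 1909 fibroblast marker counts, or 27991 CPM. The other 6 held 5 to 7 endothelial markers, had no Wt1 UMI, and stood at 1432 CPM of fibroblast markers. In the members with Rgs5, fibroblast markers stood at 7489 and 4004 CPM, against 5056 and 5186 CPM in endothelial cells. Cspg4 and Cox4i2, which are no rule genes, had 0 counts in the LFD members without Rgs5 and 2 and 5 counts in the HFD ones.

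**Figure D1:**
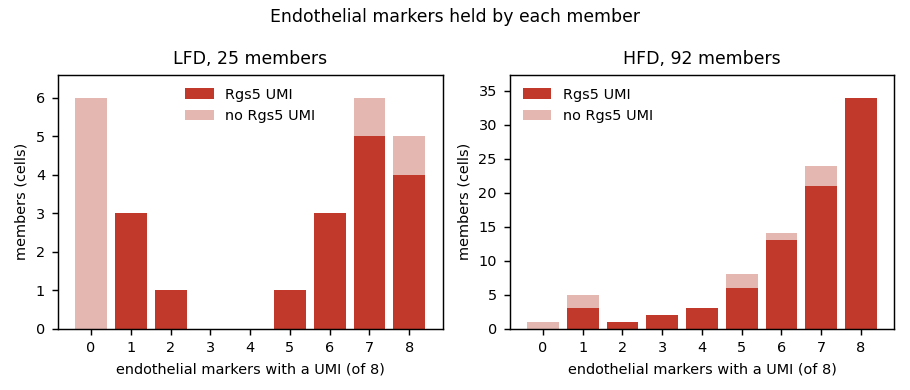
Number of members (y axis) by how many of 8 endothelial markers had a UMI (x axis), in LFD on the left and HFD on the right, with members holding an Rgs5 UMI in dark red and those without in pale red. In LFD the members fall at both ends, with 6 of 25 at 0 markers, all without Rgs5, and in HFD most sit at 6 to 8 markers.

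The endothelial RNA in members was large beside that of endothelial cells themselves. Summed over the 8 markers it reached 1901 CPM (1746 to 2067) in LFD members and, in HFD members, 4079 CPM (3939 to 4224), or 37.7% and 69.2% of the 5048 and 5896 CPM in endothelial cells. By gene the share ran from 28.1% for Emcn to 58.2% for Ptprb in LFD, and from 54.8% for Egfl7 to 81.4% for Ptprb in HFD. In the members with Rgs5 it was 57.0% and 74.9% over the list. The 12 capillary endothelial genes (Flt1, Cldn5, Cd36, Fabp4 and others) ran higher, at 52.6% and 83.8% of the endothelial level in all members and 84.4% and 91.3% in those with Rgs5. Conversely, the 8 rule genes summed to 305 and 428 CPM in endothelial cells, 15.6% and 15.2% of their level in members, with Mcam included. Per cell the median of the 8 endothelial markers was 19.0 and 44.2 UMIs per 10000 in members, and 61.5 and 72.3 in endothelial cells.

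Markers of other cell types were also present. Mesothelial markers (Wt1, Msln, Upk3b and 5 others) summed to 138 and 220 CPM, beside 154 and 249 CPM in endothelial cells. Macrophage markers stood at 189 and 95.3 CPM, and at 312 and 104 CPM in members with Rgs5, beside 85.5 and 56.0 CPM in endothelial cells. Without the members holding Wt1 they stood at 358 and 22.8 CPM. Of the members with exactly 4 rule genes, 1 in each library held 4 or more of the 6 macrophage markers, and no other member did. B cell markers stood at 72.2 and 10.3 CPM, beside 28.6 and 17.6 CPM in endothelial cells, and 1 LFD member with exactly 4 rule genes held 3 or more of the 4. Plasma cell markers stood at 395 and 2712 CPM, beside 216 and 938 CPM in endothelial cells, and in HFD most of that was in 1 member, which had 1492 of 1682 Ighm counts. T and NK cell markers had 0 and 3 counts, at or near 0. Adipocyte markers had 14 and 26 counts, 48.1 (26.3 to 80.8) and 33.5 (21.9 to 49.1) CPM, beside 37.6 and 18.2 CPM in endothelial cells and 5.50 and 1.93 CPM in B cells.

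Among 15 other pericyte genes, which the rule did not use but which come from the same cells, 9 of 10 with enough counts were at least 2 times higher in members than in endothelial cells of both libraries, where 2.86% of 11094 genes were (0.865% were lower). The members' median log2 ratio for the list was 3.92 in LFD and 4.39 in HFD, beside 0.02 and -0.02 over all genes. Pdgfrb, the receptor through which pericytes are recruited, had 75 and 237 counts, 258 (203 to 323) and 305 (268 to 347) CPM, against 8.12 and 6.51 CPM in endothelial cells. Fibroblastic cells held 63.2 and 163 CPM of it. Cspg4, the NG2 proteoglycan, had 14 and 47 counts (48.1 and 60.5 CPM) against 0 and 3 counts in endothelial cells. Cox4i2, a cytochrome c oxidase subunit used in oxygen sensing, had 72.2 (44.7 to 110) and 146 (120 to 175) CPM, against 1.22 and 2.28 CPM in endothelial cells. Cox4i2 lies on chromosome 2 at 152754173 to 152765037 and Cspg4 on chromosome 9 at 56865033 to 56899870, both on the plus strand of GRCm38, and Rgs4 on chromosome 1 at 169741477 to 169747642, next to Rgs5 at 169655501 to 169695813. Rgs4 and Vtn had 75.6 and 126 CPM and 41.3 and 118 CPM. Ebf1 was the member of the list that was not past 2-fold, with 364 and 529 CPM beside 263 and 337 CPM. Colec11, P2ry14, Foxs1, Tbx2 and Heyl had too few counts for this comparison, and genes such as Cspg4, Vtn, Cox4i2 and Rgs4 reached the minimum only through the members, so the count is a description. With a minimum of 50 counts 4 of 5 genes were past 2-fold. Without the members holding 4 or more endothelial markers it was 3 of 5. With a stricter cell filter of 1000 UMIs and 5% mt- UMIs it was 5 of 6.

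Against fibroblastic cells, 6 of 11 pericyte genes were at least 2 times higher in both libraries (Cspg4, Vtn, Cox4i2, Rgs4, Gja4 and Gjc1), where 7.18% of 8844 genes were higher and 3.32% lower. With median-ratio scaling in place of totals, 460 genes were higher and 447 lower than in fibroblastic cells, instead of 635 and 294, so that split depended on the scaling. Cspg4, Cox4i2, Rgs4 and Gja4 had 0 or 1 fibroblastic count in each library and reached the minimum only through the members, so this count is a description too. Steap4, a metalloreductase, had 230 and 350 CPM in members and 221 and 253 CPM in fibroblastic cells.

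**Figure D2:**
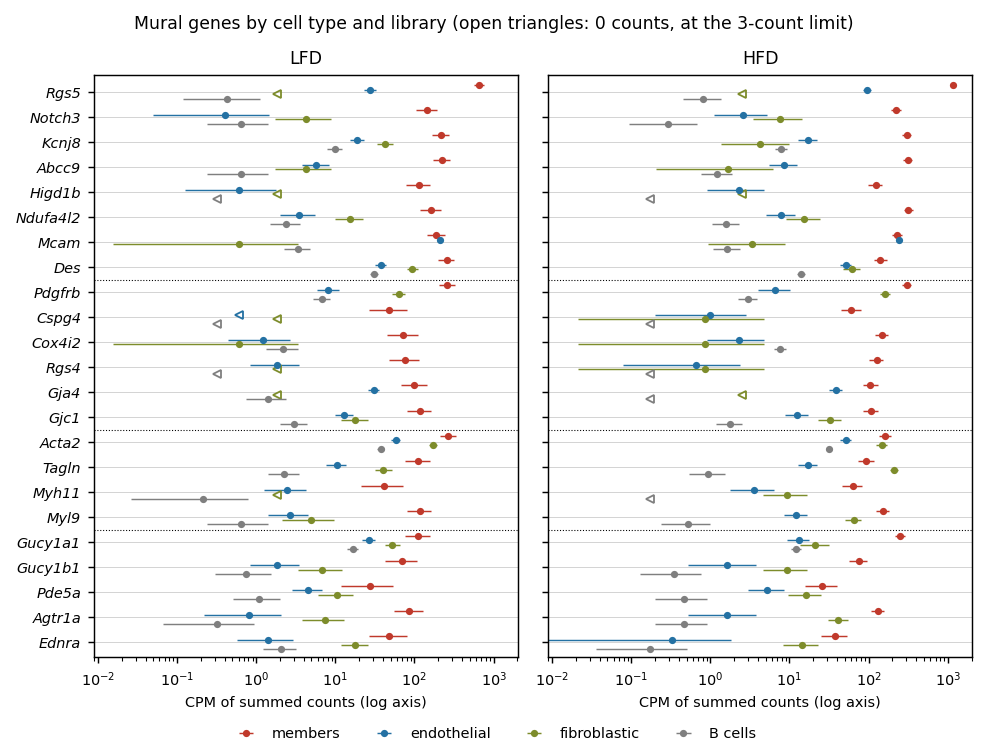
CPM of summed counts (x axis, log scale, 95% Poisson intervals) of rule genes, other pericyte genes, contractile genes and vascular tone genes (y axis, separated by dotted lines) in members, endothelial cells, fibroblastic cells and B cells of the LFD and HFD libraries, with open triangles for 0 counts placed at the level of 3 counts. Members lie far right of the other types for Rgs5, Cspg4, Cox4i2 and Rgs4, and for Pdgfrb far right of endothelial cells and nearer to fibroblastic cells, while Mcam is as high in endothelial cells and Acta2 lies close to the fibroblastic cells.

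Ranked over all genes by their smallest ratio to the higher of endothelial and fibroblastic cells in the 2 libraries, with the rule genes left out, the members were led by Cox4i2 (59.2), Rgs4 (at least 41.1), Tmem273 (at least 31.4), Cspg4 (at least 26.1) and Ccdc3 (at least 24.8), where the bounds stand for 0 counts taken as 3 in fibroblastic cells or, for Cspg4, in both types. The order of these 5 was therefore set in part by that limit. As a mean over cells Cox4i2 stood at 28.7, behind the other four, and when 3 rule genes were enough Cox4i2 and Rgs4 stood at 3.56 and 2.60. They were followed by Mnd1 (13.7), Adap2 (9.55), Ppp1r14a (8.30), Gucy1b1 (8.01) and Daam2 (7.47). Of 4585 genes with enough counts, 41 had a smallest ratio of 2 or more. Tmem273 had 20 and 62 counts in members, 8 of 25 and 36 of 92 cells, and 2 and 4 counts in all endothelial cells. Mnd1, a meiotic recombination gene, had 30 and 145 counts, found in 13 and 58 members. Ppp1r14a, an inhibitor of myosin phosphatase, had 26 and 68 counts, and Gm13889, Myh11, Cystm1, Ajuba, Igfbp5, Mfge8, Art3, Gjc1, Rnf152, Carmn, Agtr1a, Vstm4, Rasgrp2 and Plekhh3 followed at 2.75 to 7.33. Carmn, a long noncoding RNA of smooth muscle, had 10 and 27 counts against 1 and 0 in endothelial cells. None of these genes chose the members, but all were measured in the cells that the rule chose, so the ranking is a description.

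The contractile genes were only in part those of smooth muscle. Of 12 with enough counts, 6 were at least 2 times higher than in endothelial cells of both libraries (Acta2, Tagln, Myh11, Myl9, Tpm2 and Synpo2), beside 2.86% of all genes, and 3 of 11 were higher than in fibroblastic cells (Myh11, Myl9 and Sncg), beside 7.18%. In fibroblastic cells Myh11 had 0 LFD counts and Sncg 2 and 0, so they too reached the minimum there only through the members. With a minimum of 50 counts it was 3 of 9 against endothelial cells. Acta2, smooth muscle actin, had 265 (209 to 331) and 162 (135 to 193) CPM, against 174 and 147 CPM in fibroblastic cells. Only 14 of 25 and 22 of 92 members had a UMI of it. Myh11, the smooth muscle myosin heavy chain, had 12 and 49 counts, 41.3 and 63.1 CPM, in 8 and 36 members. Myl9, the regulatory light chain, stood at 117 and 151 CPM beside 2.64 and 12.1 CPM in endothelial cells. Cnn1, Pln and Actg2, which mark mature smooth muscle, had 0 counts in the members of both libraries. The list's median log2 ratio to endothelial cells was 1.77 in LFD and 1.53 in HFD.

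Contractile RNA was unevenly spread. Of 6 contractile genes (Acta2, Tagln, Myh11, Cnn1, Tpm2 and Lmod1), 2 LFD members and 1 HFD member held 5, while 1 LFD and 21 HFD members held none. Their sum had a median of 2.91 UMIs per 10000 in LFD members (0 to 87.3) and 3.10 in HFD members (0 to 35.3). Single cells weighed on the totals, as 17 of 32 LFD and 17 of 73 HFD counts of Tagln came from 1 cell each. Over cells, the rule genes and the endothelial markers, each per 10000 UMIs, had a Spearman correlation of 0.29 in LFD (25 cells) and -0.08 in HFD (92 cells). In the members with Rgs5 it was -0.28 (17 cells) and -0.17 (83 cells), so the sign in LFD turned. These are a description over cells of 1 library that share its depth.

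**Figure D3:**
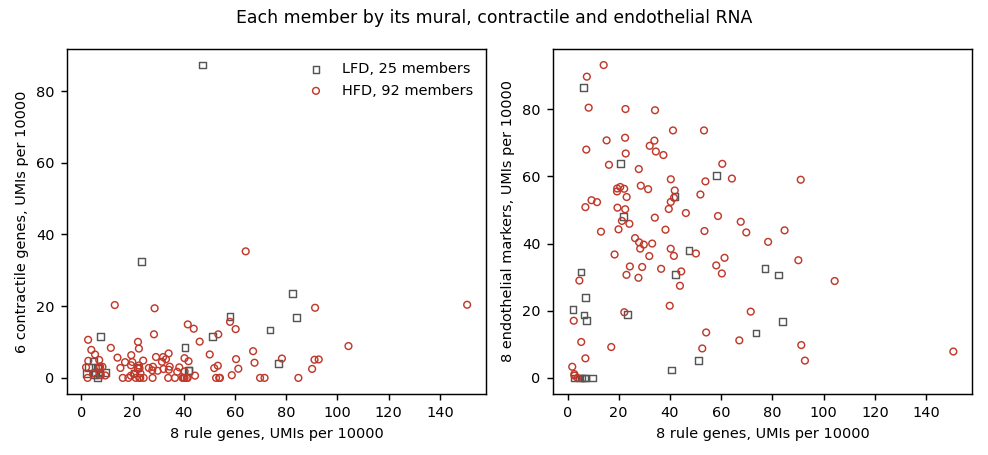
Each member by its 8 rule genes in UMIs per 10000 (x axes) and, on the left, by 6 contractile genes or, on the right, by 8 endothelial markers in UMIs per 10000 (y axes), with LFD members as grey squares and HFD members as red circles. Most members lie below 20 contractile UMIs per 10000, 1 LFD member reaches 87.3, and endothelial RNA is spread over the whole range up to 93.2 with no clear relation to the rule genes.

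The cis elements read from the reference bear on the contractile and AHR genes described here. The CArG box, the binding motif of serum response factor, was found in 2 of 13 contractile genes with a promoter in RefSeq (Myl9 and Myl6), beside 1.81% of 27025 genes with a promoter there. With 1 inner base allowed to be G or C, a form added after these promoters had been seen, it was found in Acta2 and Myl9, beside 9.69% of genes. The core of the AHR element, GCGTG on either strand, was found in 5 of 8 AHR pathway genes (Arnt, Ahrr, Cyp1a1, Cyp1b1 and Tiparp), beside 35.2% of genes. TGGGAA, the core of the RBPJ site, was found in 3 of 10 Notch genes (Rbpj, Maml2 and Hey2), beside 28.3%. A match is a description of letters and not of binding. Only a short stretch around each start site was searched, so elements further upstream were not covered. The promoters of the smooth muscle actin and myosin light chain genes and of Cyp1a1, whose own regulation marks the sorted cells, are printed from RefSeq on GRCm38.p6 in the direction of the gene, with the motifs in capitals. Acta2 is at chr19:34255324-34255623 on the minus strand, with relaxed boxes that begin 84 and 34 bases before the start site. Myl9 is at chr2:156775214-156775513 on the plus strand, with a strict box 161 and a relaxed box 99 bases before the start site. Cyp1a1 is at chr9:57697363-57697662 on the plus strand, with GCGTG 54 bases before the start site.
Acta2: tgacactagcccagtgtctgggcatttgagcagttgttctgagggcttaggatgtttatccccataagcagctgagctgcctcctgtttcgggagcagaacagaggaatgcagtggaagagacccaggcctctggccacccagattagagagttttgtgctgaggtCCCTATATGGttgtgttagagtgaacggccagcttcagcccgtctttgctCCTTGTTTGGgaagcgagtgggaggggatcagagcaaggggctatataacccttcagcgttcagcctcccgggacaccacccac
Myl9: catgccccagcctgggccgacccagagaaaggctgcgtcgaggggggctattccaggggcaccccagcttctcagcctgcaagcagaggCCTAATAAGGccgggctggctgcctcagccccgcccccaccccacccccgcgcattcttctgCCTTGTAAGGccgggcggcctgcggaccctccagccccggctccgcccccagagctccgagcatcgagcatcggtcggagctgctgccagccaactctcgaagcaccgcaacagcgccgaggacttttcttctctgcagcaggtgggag
Cyp1a1: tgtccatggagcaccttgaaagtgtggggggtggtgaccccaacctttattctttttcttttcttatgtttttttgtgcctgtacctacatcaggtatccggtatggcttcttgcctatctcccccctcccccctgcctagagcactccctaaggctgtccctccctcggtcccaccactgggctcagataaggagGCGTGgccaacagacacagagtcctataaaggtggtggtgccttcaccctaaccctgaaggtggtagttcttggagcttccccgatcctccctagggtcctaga

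Of 21 genes of vascular tone signalling, 11 had enough counts, of which 8 were at least 2 times higher than in endothelial cells of both libraries (2.86% of all genes were) and 7 were higher than in fibroblastic cells (7.18%). Several of them, such as Agtr1a with 4 and 5 endothelial counts, reached the minimum of 10 counts only through the members, so the count is a description. It was 1 of 4 with a minimum of 50 counts and 2 of 5 with the stricter cell filter of 1000 UMIs and 5% mt- UMIs. The list's median log2 ratio to endothelial cells was 2.62 and 3.05. Gucy1a1 and Gucy1b1, the subunits of the nitric oxide receptor guanylate cyclase, had 110 and 249 CPM and 68.8 and 74.7 CPM in members, and 1.83 and 1.63 CPM of Gucy1b1 were found in endothelial cells. Agtr1a, the angiotensin II receptor, had 86.0 (55.6 to 127) and 130 (106 to 158) CPM, against 0.812 and 1.63 CPM. Ednra, the endothelin A receptor, had 14 and 29 counts, 48.1 and 37.3 CPM, against 1.42 and 0.326 CPM. S1pr3, a receptor for sphingosine 1-phosphate, stood at 113 and 97.9 CPM beside 8.73 and 4.56 CPM, and at 81.0 and 61.0 CPM in fibroblastic cells. Prkg1, a kinase activated by cyclic GMP, and Pde5a and Pde3a, which break down cyclic nucleotides, were the others past 2-fold against endothelial cells. Of the rest of the list, 10 genes, among them Adra1a, Kcnmb1 and Ryr2, had too few counts.

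Of 14 interstitial matrix genes, 7 were at least 2 times higher than in endothelial cells of both libraries (Col5a2, Col6a1, Col6a2, Col6a3, Mgp, Postn and Bgn), beside 2.86% of all genes, and against fibroblastic cells none was higher and 3 were lower (Fbn1, Dcn and Lum), beside 3.32%. Fibroblast markers moved with this list, at 17755 and 5963 CPM in members against 5056 and 5186 CPM in endothelial cells, and their part in it was not tested. Col6a3, a chain of type VI collagen, had 471 and 516 CPM against 44.3 and 59.9 CPM in endothelial cells. Dcn, the proteoglycan decorin, stood at 2335 and 1505 CPM, against 5290 and 10734 CPM in fibroblastic cells. None of 13 basement membrane genes was past 2-fold against endothelial cells, near the 2.86% and 0.865% of all genes, and Col4a1 had 1124 and 1556 CPM against 1289 and 1957 CPM.

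In several lists few genes or none were past 2-fold against endothelial cells. No gene of 11 in the Notch pathway (Notch3 not counted) and none of 10 adipogenic, 7 AHR and 14 glycolysis genes was past 2-fold in both libraries, which is near the 2.86% higher and 0.865% lower of all genes and is no result about these lists. Of the mural-endothelial signalling genes, Vegfa and Tgfb2 were higher among 15, at 20.6 and 19.3 CPM and at 41.3 and 32.2 CPM. Angpt1, the pericyte ligand of the endothelial receptor Tie2, had only 0 and 4 counts. Of 12 chemokine and adhesion genes, Ccl11 and Il6 were higher. Ccl11, eotaxin, had 75.6 and 272 CPM against 2.44 and 8.47 CPM in endothelial cells and 76.7 and 213 CPM in fibroblastic cells. The heat shock genes Hspa1a and Hspa1b were the 2 of 14 immediate early and heat shock genes that were higher, and these near-identical copies share reads that a count may have split. Of 10 cell cycle genes, Mcm5 was lower and none was higher, and Mki67 was found in 5 LFD and 6 HFD members.

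Cyp1a1, the gene whose promoter drove the reporter, was well detected in members. It had 68 counts in 16 of 25 LFD members, 234 CPM (182 to 296), and 302 counts in 50 of 92 HFD members, 389 CPM (346 to 435). Endothelial cells held 470 (451 to 490) and 535 (509 to 561) CPM, so the members stood at 0.497 (0.385 to 0.633) and 0.728 (0.641 to 0.823) of that level. Fibroblastic cells held 8.59 and 12.7 CPM and B cells 19.6 and 7.35 CPM. With every cell thinned to 1000 UMIs, a Cyp1a1 UMI was left in 32.0% of LFD members (14.9 to 53.5%) and 29.3% of HFD members (20.3 to 39.8%). The share was 41.2% and 39.9% in endothelial cells, and 1.74% and 1.11% in B cells, sorted by the same reporter. Without thinning the shares were 64.0% and 54.3% in members and 73.7% and 63.5% in endothelial cells. Thinning left out 21 LFD and 10 HFD endothelial cells that were too shallow and no member.

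The Cyp1a1 counts moved with the endothelial markers, whose part in them was not tested. Per 100 endothelial marker UMIs, members had 12.3 (9.41 to 15.8) Cyp1a1 UMIs in LFD and 9.53 (8.44 to 10.7) in HFD, and endothelial cells 9.31 (8.92 to 9.72) and 9.07 (8.61 to 9.54). B cells had 13.7 (11.7 to 16.0) and 10.97 (9.05 to 13.2), so a like ratio was also found outside the endothelium, and fibroblastic cells had 42.4 and 93.8, from only 33 and 16 endothelial marker counts. In LFD, members with 7 or 8 endothelial markers had 62 Cyp1a1 counts in 11 of 11 cells, 467 CPM, and those with 0 to 3 had 3 counts in 2 of 10 cells, 25.3 CPM (5.22 to 73.9). In HFD, members with 7 or 8 had 256 counts in 40 of 58 cells, 459 CPM, and those with 4 to 6 had 126 CPM. The 9 HFD members with 0 to 3 had 29 counts, but 28 of them were in 1 cell that also had Wt1 UMIs. The 10 members with Rgs5 and 0 to 3 endothelial markers had 1 Cyp1a1 count in each library, from 4 and 6 cells. At this depth it was not detectable whether cells with mural markers and few endothelial markers held Cyp1a1 above the level of B cells.

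**Figure D4:**
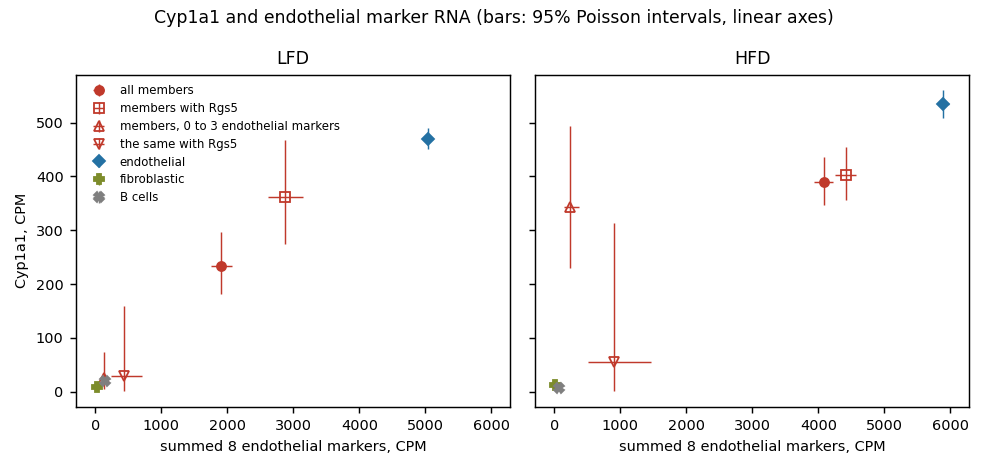
Cyp1a1 in CPM (y axes) against the summed 8 endothelial markers in CPM (x axes) in all members, members with Rgs5, members with 0 to 3 endothelial markers, the same with Rgs5, endothelial cells, fibroblastic cells and B cells, each with its 95% Poisson interval, in LFD on the left and HFD on the right. The groups with the most endothelial marker RNA have the most Cyp1a1, up to 535 CPM in HFD endothelial cells, and the groups with little of it have little, apart from the 9 HFD members with 0 to 3 markers, of whose 29 counts 28 come from 1 cell.

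Of the other AHR genes, Cyp1b1 and Tiparp did not rise with the endothelial markers in HFD. Cyp1b1, a related monooxygenase, had 471 (395 to 557) and 272 (236 to 311) CPM in members, between the 223 and 225 CPM of endothelial and the 833 and 765 CPM of fibroblastic cells. In the members with Rgs5 it stood at 300 and 221 CPM. In HFD members with 0 to 3, 4 to 6 and 7 or 8 endothelial markers it stood at 710, 364 and 183 CPM, and in the LFD ones at 557, 177 and 482 CPM. The HFD values came from 60 counts in 3 of 9 cells, 49 in 11 of 25 and 102 in 20 of 58. The 177 CPM in LFD was 7 counts in 1 cell. Tiparp, an AHR-induced ADP-ribosyltransferase, had 138 (98.3 to 187) and 225 (193 to 261) CPM, and 122 and 138 CPM in endothelial cells. By the same classes of markers it stood at 462, 253 and 183 CPM in HFD and at 135, 50.6 and 166 CPM in LFD. Its 462 CPM was 39 counts in 6 of 9 cells, and its 50.6 CPM was 2 counts. Ahr itself had 5 and 11 counts in members, and Cyp1a2 had none.

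Fabp4, a fatty acid-binding protein of capillary endothelium and adipocytes, was present also in members with few endothelial markers. In the 10 members with Rgs5 and 0 to 3 endothelial markers, every cell held it, with 43.2 to 176 UMIs per 10000 in the 4 LFD cells and 180 to 463 in the 6 HFD cells. Each of these cells held 1 to 3 of the endothelial markers, which summed to 428 and 898 CPM, and 1 had a Pecam1 UMI and 1 a Cdh5 UMI. The median was 143 and 322 per 10000 in all members, 237 and 377 in endothelial cells, 3.47 and 2.08 in fibroblastic cells, and 0 in B cells of both libraries. All 10 cells lay above those 2 medians, but single fibroblastic and B cells in LFD reached 407 and 383, so the LFD cells lay within their range. In HFD single B cells reached 418 and single fibroblastic cells 45.3. The HFD cells at 180 to 358 thus lay within the range of B cells, and those at 460 and 463 above it.

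The comparison of diets asked how mural-marker barcodes differed between lean and obese mice, and rests on 25 LFD cells. In all members, 14.9% of 7097 genes were at least 2 times higher in HFD and 5.21% lower, and for 23.5% the counting interval left out 1. In the members with Rgs5, 13.8% of 6297 genes were higher and 5.07% lower. The all-gene median log2 ratio was 0.17 and 0.11, so the bulk of genes stood near 1. The makeup of the members differed between libraries, as 8 of 25 LFD and 9 of 92 HFD members lacked Rgs5, and most ratios are therefore given also for the members with Rgs5.

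Of 13 pericyte genes with enough counts, 4 were at least 2 times higher in HFD over all members (Vtn, Cox4i2, Foxs1 and Tbx2), beside 14.9% of all genes. In members with Rgs5 it was 1 (Foxs1, from 2 LFD and 30 HFD counts), near the 13.8% of all genes. The list's median log2 ratio was 0.74 and -0.04. Pdgfrb had a ratio of 1.18 (0.909 to 1.56) over all members, from 75 and 237 counts, and 0.744 (0.567 to 0.985) with Rgs5. Cox4i2 had 2.02 (1.26 to 3.38), from 21 and 113 counts, and 1.21 (0.755 to 2.04). Vtn, from 12 and 92 counts, had 2.87 (1.57 to 5.76) and 1.71 (0.930 to 3.43).

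Of the contractile genes, Acta2 and Tpm2 were lower in HFD members. Acta2 had 77 LFD and 126 HFD counts, a ratio of 0.613 (0.458 to 0.825), and 68 and 88 counts in members with Rgs5, a ratio of 0.305 (0.220 to 0.425), while in endothelial cells it was 0.892 (0.730 to 1.09). Tpm2 had 0.624 (0.473 to 0.828) and 0.435 (0.318 to 0.599). Tagln had 0.854 (0.557 to 1.34) and 0.501 (0.324 to 0.788), with 17 of its 32 LFD counts in 1 cell. Myh11 stood at 1.53 (0.802 to 3.16) and 0.962 (0.505 to 1.99). Over all members 1 of 12 genes was past 2-fold, Synpo2, higher in HFD from 5 and 27 counts, where 14.9% of all genes were higher and 5.21% lower. With Rgs5, 2 of 12 genes were past 2-fold (Acta2 and Tpm2, both lower), beside 13.8% higher and 5.07% lower of all genes. The list's median log2 ratio with Rgs5 was -0.42, beside 0.11 over all genes.

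Of the vascular tone genes, 5 of 14 were higher in HFD over all members, beside 14.9% of all genes. With Rgs5 3 were higher and 1 lower, near the 13.8% and 5.07% of all genes. Gucy1a1 had 32 and 193 counts, a ratio of 2.26 (1.55 to 3.40), and 1.57 (1.05 to 2.42) with Rgs5. In endothelial cells its ratio was 0.493 (0.337 to 0.708). Agtr1a had 25 and 101 counts and ratios of 1.51 (0.969 to 2.45) and 0.886 (0.565 to 1.44).

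The collagen gene Col3a1 and the fibronectin gene Fn1 were lower in HFD members and higher in HFD endothelial cells. Col3a1 had 2102 and 2237 counts, a ratio of 0.399 (0.375 to 0.423), and Fn1 422 and 389 counts, a ratio of 0.345 (0.300 to 0.397). In members with Rgs5 the ratios were 0.681 and 0.407, and in endothelial cells 1.15 and 1.42. The summed fibroblast markers moved with this, at 17755 CPM among LFD members and 5963 CPM among HFD members, and in members with Rgs5 at 7489 and 4004 CPM. Postn went the other way, with 95 and 632 counts, 2.49 (2.01 to 3.13) over all members, 1.47 (1.18 to 1.84) with Rgs5, and 17.6 (11.3 to 29.1) in endothelial cells. Of the 14 interstitial matrix genes, 3 were higher and 2 lower over all members, not far from the 14.9% and 5.21% of all genes, and with Rgs5 none was higher and 3 were lower (Fn1, Mgp and Lum), beside 13.8% and 5.07%.

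Endothelial markers were higher in HFD over all members. Of 8, 5 were at least 2 times higher, where 14.9% of all genes were, but with Rgs5 only 1 (Cdh5), near the 13.8% of all genes. Cdh5, the VE-cadherin of endothelial junctions, had 82 and 706 counts, ratios of 3.22 (2.56 to 4.10) and 2.32 (1.81 to 3.01), beside 1.54 in endothelial cells. Of 9 Notch genes 7 were higher over all members and 4 with Rgs5, and Hes1, a Notch target, had 22 and 180 counts and ratios of 3.06 (1.96 to 5.01), 2.16 (1.31 to 3.81) and, in endothelial cells, 1.90 (1.69 to 2.14). Cd36 had 3.63 and 2.41, beside 2.14, and Fabp4 2.43 and 1.65, beside 1.504. The part of endothelial RNA in these ratios was not tested. Cyp1a1 had 1.66 (1.27 to 2.20) over all members, 1.11 (0.836 to 1.505) with Rgs5, and 1.14 (1.07 to 1.21) in endothelial cells.

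Of 9 cell cycle genes none was higher in HFD, 2 were lower over all members, beside 5.21% of all genes, and 8 with Rgs5, beside 5.07%. Top2a, from 34 and 51 counts in 6 cells of each library, had 0.562 (0.357 to 0.894) and 0.376 (0.237 to 0.604), beside 0.559 in endothelial cells. These ratios rest on few cells, and with no replicate a difference between individual mice and one between diets cannot be told apart.

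**Figure D5:**
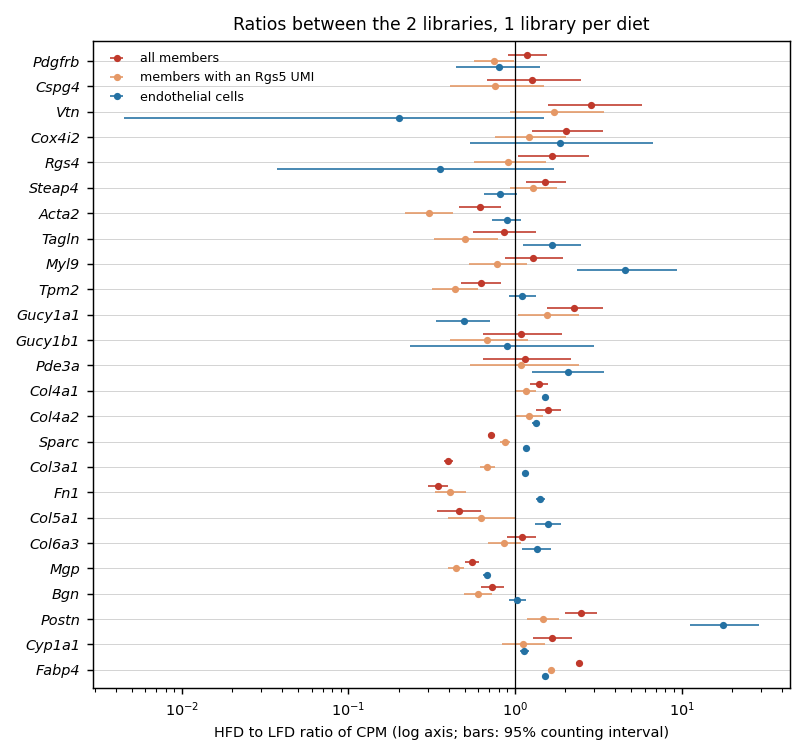
HFD to LFD ratio of CPM (x axis, log scale, 95% counting intervals, 1 library per diet) for 25 named genes (y axis) in all members, members with an Rgs5 UMI and endothelial cells. Acta2 and Tpm2 lie left of 1 in both sets of members, Gucy1a1 lies right of 1 in members and left in endothelial cells, and Col3a1 and Fn1 lie left of 1 in members and right of it in endothelial cells.

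Several of the genes with the most distant intervals across all genes had most of their counts in 1 cell. Higher in HFD were Iglc1 (4 and 2298 counts, 2250 of them in 1 cell), Jchain (2 and 283, 234 in 1 cell), Ighm (75 and 1682, 1492 in 1 cell) and Igkc (297 and 3991, 3493 in 1 cell), all of them genes of antibody-secreting cells. Of the LFD counts, 56 of the 75 for Ighm and 249 of the 297 for Igkc were also in 1 cell. Sox18, an endothelial transcription factor, had 0 LFD counts and 100 HFD counts in 45 members, with a ratio of 3.56 in endothelial cells. Chchd10 had 0 and 64 counts and Pgf, placental growth factor, 0 and 48, with endothelial ratios of 2.48 and 3.77. Selp, P-selectin, had 0 and 44 counts in 7 cells, and in endothelial cells its ratio was on the other side of 1, at 0.421 (0.335 to 0.524). With Rgs5 these 4 genes also had 0 LFD counts. Lower in HFD were Saa3, an acute phase protein, with 1490 and 336 counts, a ratio of 0.0845 (0.0748 to 0.0951), and Timp1, a metalloproteinase inhibitor, with 419 and 132 counts, a ratio of 0.118 (0.0963 to 0.144). With Rgs5 the ratios were 0.0547 and 0.0915. Of the 336 HFD counts of Saa3, 199 were in 1 cell. Saa3 was lower in endothelial and fibroblastic cells too, at 0.206 and 0.0763. Itm2a had 59 and 13 counts and Hp 60 and 18, ratios of 0.0825 and 0.112, with Rgs5 0.113 and 0.236, and in endothelial cells 0.149 and 0.337. Without the members holding Wt1, Itm2a had 2 and 6 counts and a ratio of 0.830 (0.148 to 8.41), so its difference was not seen there. The same step moved Saa3 to 0.0159, Timp1 to 0.0168, Ighm from 8.40 to 34.7 and Igkc from 5.03 to 46.3. Spp1 had 72 and 2 counts, 63 of the LFD ones in 1 cell, H19 29 and 6, with 28 in 1 cell, Mmp8 31 and 0, and Ncam1 30 and 3. With Rgs5 these 4 had 72 and 1, 0 and 3, 8 and 0, and 6 and 3 counts, so H19 was not lower there and the ratio of Ncam1 was 0.118 (0.0191 to 0.552) against 0.0375.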

How the data were processed

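Sorted eYFP+ cells from gWAT SVF were measured in 2 single-cell libraries (10x Genomics 3' v3), 1 per diet. The deposited matrices hold raw UMI counts per gene and barcode, which the authors made with Cell Ranger 4.0.0 and did not normalise. Per the submitters' processing notes mm10, STAR, Seurat 4.1.0 and bcl2fastq 2.17.1.14 were also used, and the annotation release is not given in the sources used here. The gene and barcode name files hold no measurement. Barcodes with 500 to 40000 UMIs, at least 100 genes and under 12.5% UMIs of mt- genes were kept, the limits of the study. Doublets were not removed, since the rule does not remove them, and Scrublet removal (scanpy 1.11.5, 0.8% per 1000 barcodes) was an alternative.

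The members and gene lists were chosen with earlier results of these data known. Endothelial cells had at least 4 of 8 endothelial markers and no Ptprc UMI. Fibroblastic cells had at least 5 of 8 fibroblast markers (Pdgfra, Col1a1, Col1a2, Col3a1, Col15a1, Dpt, Clec3b and Pi16) and no UMI of Ptprc, Wt1, Msln or Upk3b. B cells had a Ptprc UMI and at least 3 of 4 B cell markers. A barcode counted as 1 type, with members first. Counts were summed per library and type and scaled to 1000000 (CPM), with exact Poisson intervals. Shares had Clopper-Pearson and ratios conditional binomial intervals, all 95%, and UMIs of 1 cell are not independent, so they cover counting error only. A gene counted as past 2-fold between types with at least 10 counts in either, in both libraries, and between diets with at least 20 counts in all, and a 0 was taken as 3 counts. Named genes were the listed genes, the 25 with the largest smallest ratio to both other types among genes with 10 counts in the members of each library, and the 8 with the most distant interval in each direction of diet. Of these, 1 gene of the 25 and 1 marker list are not reported here. The functions were checked on simulated counts. Promoters are from RefSeq on GRCm38.p6 and gene positions from GENCODE M21. Python 3.11.15, scipy 1.17.1 and pandas 2.3.3 were used. With 1 library per diet no model or p-value was computed.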

Additional observations from a re-analysis of the deposited data

Results flagged for a closer look

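Col3a1, Fn1, Col5a1 and Gucy1a1 had HFD to LFD ratios on the other side of 1 in members and in endothelial cells, with neither counting interval holding 1. With 1 library per diet the difference between the ratios was itself not tested. Col3a1 had 0.399 (0.375 to 0.423) in members and 1.15 (1.118 to 1.19) in endothelial cells. Fn1, fibronectin, had 0.345 (0.300 to 0.397) and 1.42 (1.33 to 1.51), and Col5a1, a fibrillar collagen chain, 0.462 (0.342 to 0.628) and 1.58 (1.33 to 1.88). In the members with Rgs5 Col5a1 stood at 0.623 (0.398 to 1.00). The members' fibroblast marker RNA was higher in LFD, at 17755 against 5963 CPM, and its part in these ratios was not tested. Gucy1a1 had 2.26 (1.55 to 3.40) in members, from 17 and 73 cells with a UMI, and 0.493 (0.337 to 0.708) in endothelial cells.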

How the results depend on the processing

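The libraries have no replicate, so the values have no error beyond counting. No paired analysis was possible because each diet had 1 library. The excess of members in HFD was no longer seen with 3 rule genes (1.01) or without members holding 4 or more endothelial markers (1.08), and was 4.82 to 6.54 with 5 rule genes, Scrublet removal or the stricter cell filter of 1000 UMIs and 5% mt- UMIs.

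The Cyp1a1 level in members over that in endothelial cells, 0.497 in LFD and 0.728 in HFD, was in LFD 0.0698 with 3 rule genes, 0.0538 without the endothelial-marker members, 0.672 with the stricter cell filter and, in settings chosen after seeing the data, 0.770 with Rgs5 required and 0.790 without members holding Wt1. In HFD it was 0.192 with 3 rule genes, 0.888 with 5, 0.904 without Wt1 and 0.488 as a mean over cells. The 413 genes past 2-fold against endothelial cells became 2528 with 3 rule genes, 2830 without the endothelial-marker members, 762 as a mean over cells, 2643 and 131 with count minimums of 1 and 50, and 1187 and 144 at 1.5-fold and 3-fold. The 929 against fibroblastic cells became 590 without the endothelial-marker members, 527 with the stricter cell filter, 2353 and 266 with those minimums, and 1946 and 416 at those folds. The 1425 between diets became 255, from 146 higher and 109 lower, without the endothelial-marker members, 5279 and 591 with those minimums, and 2954 and 490 at those folds. The balance turned to more lower than higher genes between diets with the count minimum of 1 (1754 higher, 3525 lower), against endothelial cells with 3 rule genes (1163 and 1365), and against fibroblastic cells with the stricter cell filter (248 and 279) and the count minimum of 50 (116 and 150). With 3 rule genes, the smallest ratio to the other types turned below 1 for Ppp1r14a (0.869), Gm13889 (0.750), Ajuba (0.840), Igfbp5 (0.922), Mfge8 (0.994), Art3 (0.359), Rnf152 (0.463), Carmn (0.667), Agtr1a (0.689), Vstm4 (0.695) and Rasgrp2 (0.360). Between diets, Ighm (0.389) and Igkc (0.218) turned without the endothelial-marker members, and Itm2a (2.04) with the stricter cell filter. Apart from the minimums, which set how many genes were tested, and the folds, which set how many passed, the causes were not tested. The other 35 values of main comparisons moved by less than their counting interval or, for counts of genes, by under 1.5-fold. Median-ratio scaling shifted the log2 ratio to fibroblastic cells by 0.21 and 0.26 and the others by under 0.1.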
